A study of Mus musculus with 12 samples.

Results

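The 37 genes described here encode the cyclins, the cyclin-dependent kinases (CDKs), their inhibitors and the pocket proteins. They also encode the E2F transcription factors and the mitotic kinases of the cell cycle. All were chosen by name, with earlier results of these data known. All 37 were among the 55416 genes counted, and all 37 were among the 17940 genes that entered the test. Expression was measured by RNA-seq of rRNA-depleted total RNA from mouse embryonic stem cells (ESC, cell line Bl/6J). The groups were Oct4 C48S cells at day 2 of retinoic acid (RA), WT parental cells at day 2 of RA, undifferentiated Oct4 C48S cells and undifferentiated WT cells, with 3 libraries each. C48S names a cysteine-to-serine change in Oct4 (gene Pou5f1), the POU factor that maintains pluripotency, and the titles give a single clone number for the C48S line, so the mutation and the history of that clone cannot be told apart. Undifferentiated cells of both lines grew with PD (a MEK inhibitor, 1 µM), CHIR99021 (a GSK3 inhibitor, 3 µM) and ascorbic acid, whereas RA cells of both lines were kept for 2 days without LIF in 1.5 mg/L RA. The labels give the inhibitors for the undifferentiated culture alone, so RA and the change of medium cannot be told apart. A separate treatment field lists days 2 to 4 for the WT RA libraries and days 5 to 7 for the C48S RA libraries, against day 2 in every title and in the protocol. The titles were followed, and if that field were right, line and day could not be told apart. No label says whether the 3 libraries of a group are separate cultures, and the tests therefore set differences against library-to-library spread that could be purely technical.

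In the mammalian cell cycle, D cyclins with CDK4 or CDK6, and then E cyclins with CDK2, phosphorylate the pocket proteins Rb1, Rbl1 and Rbl2, which releases E2F factors to switch on the genes of S phase. Inhibitors of the INK4 family (Cdkn2a to Cdkn2d) bind CDK4 and CDK6, inhibitors of the CIP/KIP family (Cdkn1a, Cdkn1b, Cdkn1c) bind cyclin-CDK complexes, and A and B cyclins with CDK1, the CDC25 phosphatases, Plk1 and the Aurora kinases carry the cell through G2 and mitosis. Mouse ESC are known for a short G1 phase and for high CDK activity, and the G1 phase lengthens as they differentiate.

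Promoter sequence was available from RefSeq (build GRCm38.p6, 250 bases before to 50 after the gene start) for 27 of the 37 genes, with 33 starts. Both strands were searched for E2F-like letters (TTTGGCGC, TTTCGCGC or TTCCCGCC), for the cell cycle homology region CHR (TTTGAA or TTCGAA), for CCAAT and for the octamer ATGCAAAT, the sequence bound by POU factors such as Oct4. The E2F letters were present at 5 of the 33 starts (Cdc25a, Cdk1, E2f2, E2f3 and Rbl1), against 2.96% of all 32851 promoters in the table, and the CHR letters at 11 of 33 starts, against 19.2% of all promoters. CCAAT was present at 20 of 33 starts, of 19 genes, against 37.4% of all promoters, and the octamer at E2f3 alone, against 1.74%. The promoters of Cdk1, Plk1 and Aurka, 3 genes of G2 and mitosis that fell with RA, are printed because CHR and CCAAT letters lie near their starts. That of E2f3 is printed because it holds the octamer. All were picked after the search. Both kinds of letters also lie near other starts, among them those of Cdc25b and Ccnb2, which did not fall with RA. Cdc25b rose by 1.17 in C48S and 1.62 in WT on the log2 scale. Ccnb2 rose by 0.29 in WT, where the value in C48S was 0.02. Each runs 5′ to 3′ on the gene's strand and capitals mark the letters searched for. The sequences are those of chr10:69352863-69353162 (Cdk1, minus strand), chr7:122159185-122159484 (Plk1, plus strand), chr2:172370521-172370820 (Aurka, minus strand) and chr13:29986014-29986313 (E2f3, minus strand).
Cdk1: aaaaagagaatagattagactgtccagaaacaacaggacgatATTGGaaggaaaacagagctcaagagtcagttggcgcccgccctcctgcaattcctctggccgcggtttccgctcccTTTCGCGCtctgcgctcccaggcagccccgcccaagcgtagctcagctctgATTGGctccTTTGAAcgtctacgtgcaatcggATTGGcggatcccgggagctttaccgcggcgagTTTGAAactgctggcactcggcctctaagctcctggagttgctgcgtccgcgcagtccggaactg
Plk1: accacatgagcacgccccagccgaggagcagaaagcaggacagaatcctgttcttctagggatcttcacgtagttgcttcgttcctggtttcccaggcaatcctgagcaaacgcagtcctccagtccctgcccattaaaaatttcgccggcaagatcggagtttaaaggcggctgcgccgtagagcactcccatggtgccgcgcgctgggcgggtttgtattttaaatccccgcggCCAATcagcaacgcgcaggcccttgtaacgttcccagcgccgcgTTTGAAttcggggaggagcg
Aurka: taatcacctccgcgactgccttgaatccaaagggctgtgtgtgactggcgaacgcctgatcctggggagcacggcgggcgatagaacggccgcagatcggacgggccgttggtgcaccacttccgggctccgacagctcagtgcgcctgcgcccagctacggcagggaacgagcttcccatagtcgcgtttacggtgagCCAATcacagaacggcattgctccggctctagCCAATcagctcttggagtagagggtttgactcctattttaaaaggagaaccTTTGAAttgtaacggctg
E2f3: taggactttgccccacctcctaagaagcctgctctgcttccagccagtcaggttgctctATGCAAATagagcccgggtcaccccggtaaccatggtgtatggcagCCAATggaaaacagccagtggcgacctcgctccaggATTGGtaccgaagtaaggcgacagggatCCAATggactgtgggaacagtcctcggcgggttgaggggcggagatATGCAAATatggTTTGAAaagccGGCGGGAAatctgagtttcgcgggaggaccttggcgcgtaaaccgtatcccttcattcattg
Positions are those of the first letter, counted from the start base with no position 0. The Cdk1 promoter holds E2F letters at -131 and CHR letters at -71 and -15. Its CCAAT letters, read on the other strand, lie at -208, -80 and -48. Plk1 has CCAAT at -14 and CHR letters at 31, after the start, and Aurka has CCAAT at -51 and -19 and CHR letters at 33. E2f3 has the octamer at -191 and again at -35, with CCAAT at -145 and -81 and on the other strand at -109, CHR letters at -23 and E2F letters at -12. These matches describe letters in a window and are no evidence of binding.

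Library totals lay between 8678088 and 13597098 counts assigned to genes. The cells were checked against cell type markers chosen from general knowledge, as summed CPM (read counts scaled to library size). The 10 pluripotency markers summed to 1250 to 1320 CPM in C48S RA libraries, 643 to 660 CPM in WT RA libraries, 5620 to 5780 CPM in undifferentiated C48S libraries and 5930 to 6070 CPM in undifferentiated WT libraries. All 10 were above 1 CPM in each group. The near sums of the undifferentiated lines hide opposite members, with 4 of the 10 higher and 4 lower in C48S. Klf4 averaged 639.4 ± 28.4 CPM in undifferentiated C48S cells and 211.9 ± 9.88 CPM in undifferentiated WT cells. Sall4 averaged 650.5 ± 18 CPM in undifferentiated C48S cells and 1173 ± 26.6 CPM in undifferentiated WT cells. Pou5f1 itself averaged 68.3 ± 3.2 CPM in C48S RA cells and 23.0 ± 1.07 CPM in WT RA cells (SD, n = 3 each); the counts do not show the mutated codon. The 10 trophoblast markers summed to 338 to 367 CPM in C48S RA libraries and to 568 to 583 CPM in WT RA libraries, with Tpbpa at 0 in all 4 groups. The sums hide opposite members: Krt18 averaged 112.1 ± 3.6 CPM in C48S RA cells and 340.7 ± 5.82 CPM in WT RA cells. Krt8 averaged 87.5 ± 4.99 CPM in C48S RA cells and 158.7 ± 4.34 CPM in WT RA cells, whereas Cdx2 averaged 38.2 ± 2.84 CPM in C48S RA cells and 2.94 ± 0.962 in WT RA cells. Of the 8 tested after RA, 4 were higher and 2 lower in C48S. The 10 extraembryonic endoderm markers summed to 170 to 180 CPM in C48S RA and 174 to 188 CPM in WT RA libraries. Of the 10, 3 were higher and 3 lower in C48S after RA. In undifferentiated libraries the 10 markers summed to 44.2 to 50.2 CPM in C48S and 79.5 to 84 CPM in WT. All 10 rose with RA in both lines. The 10 neuroectoderm markers summed to 80.2 to 82.3 CPM in C48S RA and 106 to 109 CPM in WT RA libraries. Here too the sums hide opposite members, with 5 of the 9 tested higher and 3 lower in C48S after RA. Nes averaged 35.1 ± 1.02 CPM in C48S RA cells and 81.8 ± 1.51 CPM in WT RA cells. Sox1 averaged 13.1 ± 1.34 CPM in C48S RA cells and 3.12 ± 0.265 CPM in WT RA cells. Of the 9 tested, 6 rose and 3 fell with RA in each line. Beside these marker counts, 39% of all tested genes rose and 34.6% fell with RA in C48S. In WT 40.9% rose and 37.4% fell. Between the lines 28.8% of all tested genes were higher and 25.7% lower in C48S after RA, and 27.5% and 28.1% before. The 10 fibroblast or feeder markers summed to 630 CPM in C48S undifferentiated replicate 3, above the 474 and 490 CPM of the other C48S undifferentiated libraries and the 449 to 482 CPM of WT undifferentiated libraries. In RA libraries they summed to 268 to 276 CPM in C48S and 342 to 345 CPM in WT. The part of these markers in the results below was not tested; where C48S undifferentiated replicate 3 decides a value, the value without it is given.

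Per unit of summed exon length (TPM), Cdk4 and several mitotic genes were among the highest in each group. That length can exceed the length of the transcripts present, so the order of genes depends on it. Cdk4, the catalytic partner of D cyclins, was the highest of the 37 in C48S RA cells (306.7 ± 3.86 TPM), in undifferentiated C48S cells (447.4 ± 33.9 TPM) and in undifferentiated WT cells (398.0 ± 3.67 TPM), whereas Ccnb2, a mitotic B cyclin, was the highest in WT RA cells (336.4 ± 17.1 TPM; SD, n = 3 each). In undifferentiated WT cells Plk1 and Ccnb1 came next, at 274.2 ± 0.643 and 274.1 ± 1.26 TPM, and these neighbours did not differ beyond their spread. At the low end were Ccna1, the A cyclin known from the germ line, with 0.404 ± 0.259 TPM in undifferentiated WT cells, and Cdkn2c with 1.07 ± 0.709 TPM in undifferentiated C48S cells. The order of several genes differed between the lines. E2f4 was the second highest gene in undifferentiated C48S cells (331 ± 19.1 TPM) and the eighth in undifferentiated WT cells (166 ± 2.29 TPM), and Ccnd2 was the seventh in C48S RA cells (156 ± 3.24 TPM) against the 21st in WT RA cells (34.9 ± 0.909 TPM). TPM shares out a fixed total, has no TMM scaling and is used to compare genes within a group; sums and shares in TPM below were not tested between groups. Tested differences between groups are given in CPM with TMM scaling, and their log2 fold changes come from edgeR's quasi-likelihood test with Benjamini-Hochberg adjustment, called at an adjusted p under 0.05.

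**Figure D1:**
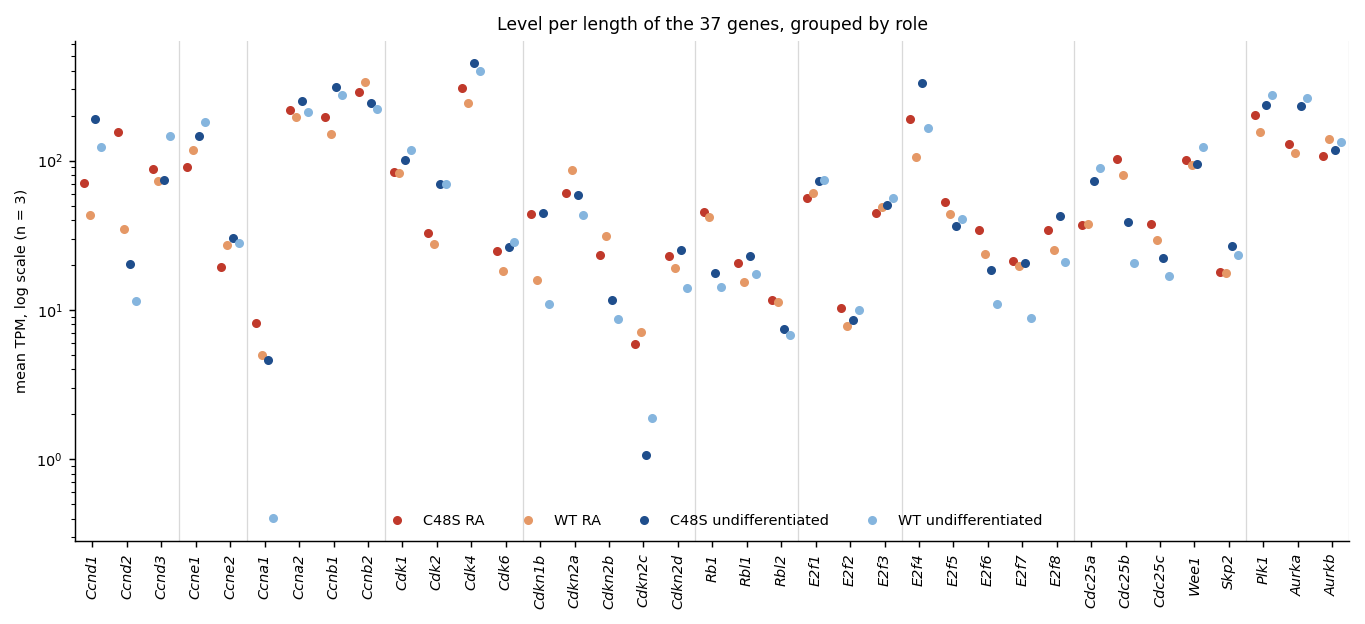
Mean TPM (log axis, n = 3 libraries) of the 37 genes, ordered by role with grey lines between roles, in C48S RA, WT RA, C48S undifferentiated and WT undifferentiated cells. Cdk4 and the B cyclins lie near the top and Ccna1 and Cdkn2c near the bottom, and the groups are far apart at Ccnd2 and Cdkn1b.

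Between the lines, 26 of the 37 genes were called at day 2 of RA, 20 higher and 6 lower in C48S, where 54.5% of all tested genes were called (28.8% higher and 25.7% lower). In undifferentiated cells 28 were called, 16 higher and 12 lower in C48S, where 55.6% of all tested genes were called (27.5% higher and 28.1% lower). The median log2 difference of the 37 was 0.25 after RA and 0.10 in undifferentiated cells, beside 0.023 and 0.001 over all tested genes. For 28 of 37 genes the 3 C48S and 3 WT libraries did not overlap after RA, as for 62.6% of all tested genes, and for 28 of 37 in undifferentiated cells, as for 58.3% of all. With a background this high, a call by itself says little about these genes, and the sizes below carry the description. A difference of at least 2-fold was called for 2 genes higher (Ccnd2 and Cdkn1b) and 0 lower in C48S after RA, against 6.18% and 8.18% of all genes, and for 3 higher (Ccna1, Cdkn1b and E2f7) and 1 lower (Ccnd3) in undifferentiated cells, against 8.01% and 9.97%. In both states 12 genes were higher in C48S: Ccnd1, Ccnd2, Ccna1, Ccna2, Ccnb1, Cdkn1b, Rbl1, E2f4, E2f6, E2f8, Cdc25b and Cdc25c. Aurkb and Ccne1 were lower in both, and E2f1, Rbl2 and Skp2 were called in neither. Another 5 (Ccnd3, Cdk6, E2f5, Plk1 and Aurka) were lower in undifferentiated C48S cells and higher in C48S cells after RA, and Cdkn2a was the reverse. Shares of all tested genes with these joint patterns were not worked out, so the joint counts only list the genes.

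RA changed most of the 37 genes in both lines. In C48S cells 10 rose and 23 fell, where 73.6% of all tested genes were called (39% up and 34.6% down), and in WT cells 13 rose and 22 fell, where 78.3% were called (40.9% up and 37.4% down). The median log2 change of the 37 was -0.37 in C48S cells and -0.42 in WT cells, beside 0.049 and 0.055 over all tested genes. Of the 37, 19 fell in both lines, 9 rose in both, Cdkn1b and E2f7 rose in WT and fell in C48S, and E2f5 fell in WT and rose in C48S. For these joint patterns too, no share of all tested genes was worked out. The RA and undifferentiated libraries did not overlap for 33 of 37 genes in C48S (73.8% of all genes) and for 35 of 37 in WT (80.9% of all). The difference between the RA changes of the lines (C48S minus WT) was called for 22 of the 37, 13 more positive and 9 more negative in C48S, where 39.4% of all tested genes were called (22.2% and 17.2%). A change of at least 2-fold with RA was called for 4 up and 5 down in C48S, against 23.4% and 9.01% of all genes, and for 6 up and 8 down in WT, against 26.6% and 15.1%. A difference of at least 2-fold between the RA changes was called for Ccnd2 and Ccnd3 (more positive in C48S, 8.02% of all genes) and for Ccna1 and E2f7 (more negative, 6.05%). These 2 RA comparisons and the line comparisons share libraries, so the counts are not independent of each other. In bulk RNA, fewer cells of a type and less RNA per cell cannot be told apart, for these and all following levels. Without C48S undifferentiated replicate 3, 15 genes were higher and 12 lower in undifferentiated C48S cells, 9 rose and 22 fell with RA in C48S, and the RA change was more positive in C48S for 15 genes and more negative for 9.

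**Figure D2:**
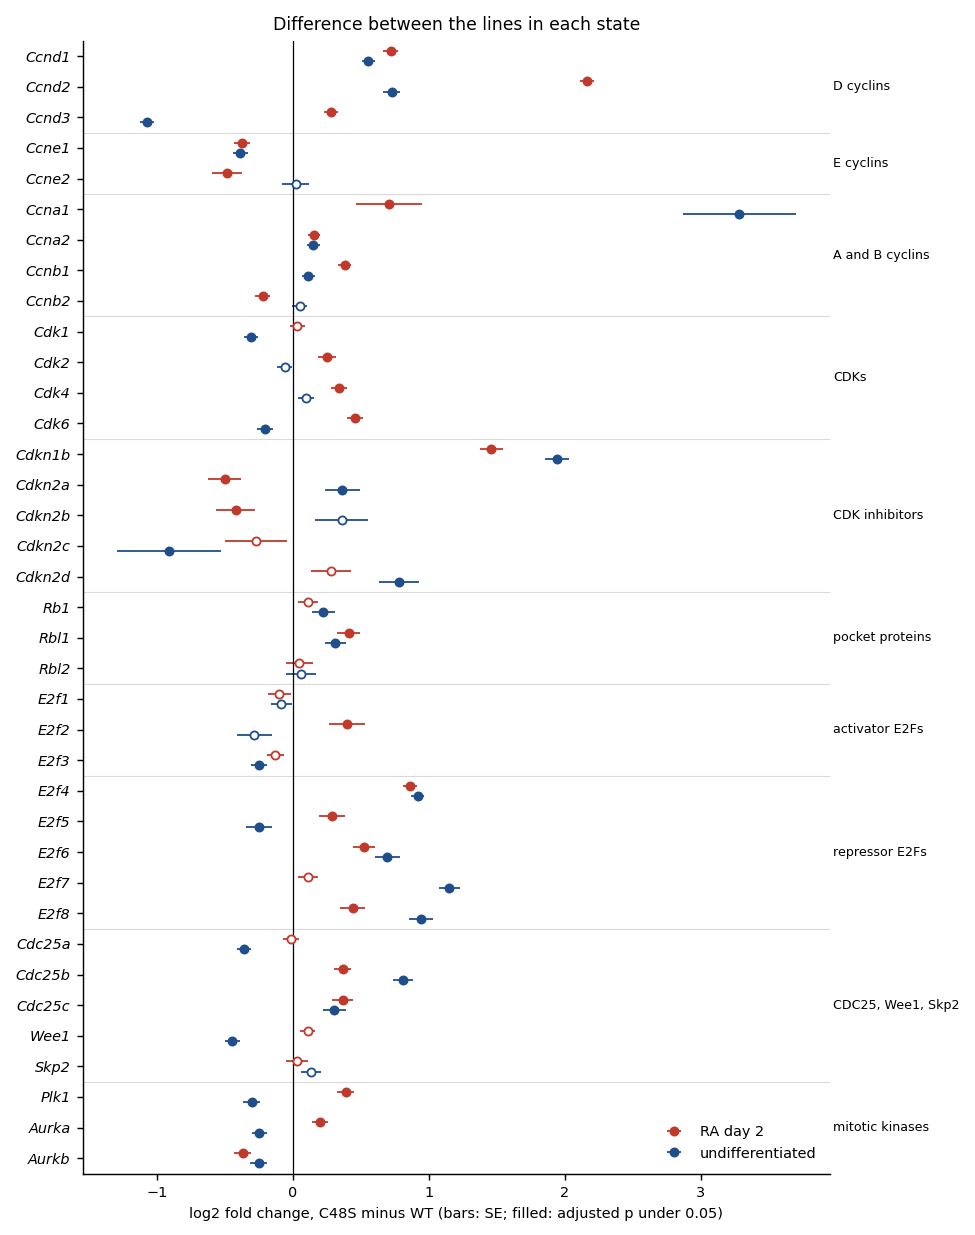
Log2 fold change of C48S minus WT (x axis) for each of the 37 genes, after RA (red) and in undifferentiated cells (blue); bars are the SE and filled points have an adjusted p under 0.05. Ccnd2 at 2.17 after RA and Ccna1 at 3.28 in undifferentiated cells lie farthest to the right, and Ccnd3 at -1.07 in undifferentiated cells farthest to the left.

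The D cyclins link growth signals to CDK4 and CDK6, and each of the 3 behaved differently. Ccnd1 (chr7:144483668-144493662, GRCm39) had 83.8, 89.8 and 91.8 CPM in C48S RA libraries and 55.7, 52.7 and 52.6 CPM in WT RA libraries. Before RA the levels were 279, 276 and 288 CPM in C48S undifferentiated libraries and 192, 195 and 186 CPM in WT undifferentiated libraries. Its C48S libraries lay above the WT libraries in both states, and it was lower after RA in both lines. The log2 difference between C48S and WT was 0.72 (SE 0.06, adjusted p = 2.57e-13) after RA and 0.56 (SE 0.05, adjusted p = 4.18e-12) in undifferentiated cells. With RA, Ccnd1 fell by 1.67 on the log2 scale in C48S and by 1.83 in WT, and the difference of these changes, 0.17, was not called (adjusted p = 0.0738); it was called without C48S undifferentiated replicate 3 (0.18) and without C48S RA replicate 1 (0.20).

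Ccnd2 (chr6:127102125-127129156) showed the largest difference between the lines after RA among the 37. It had 388, 402 and 383 CPM in C48S RA libraries and 84.7, 87.7 and 89.1 CPM in WT RA libraries. In undifferentiated libraries the values were 60.8, 61.4 and 57.0 CPM in C48S and 34.4, 37.5 and 36.0 CPM in WT. The 4 groups did not overlap, and the C48S RA libraries stood far above the others. Ccnd2 was 4.49-fold higher in C48S than in WT after RA (log2 2.17, SE 0.05, adjusted p = 9.13e-28) and 1.66-fold higher in undifferentiated cells (log2 0.73, SE 0.06, adjusted p = 1.89e-12). It rose 6.54-fold with RA in C48S and 2.42-fold in WT, and the RA change was larger in C48S by 1.44 on the log2 scale (SE 0.08, adjusted p = 1.07e-16).

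Ccnd3 (chr17:47815976-47910616) went against Ccnd1 and Ccnd2 in undifferentiated cells. It had 211, 213 and 193 CPM in C48S RA libraries and 166, 172 and 171 CPM in WT RA libraries. Without RA, it had 197, 194 and 221 CPM in C48S undifferentiated libraries and 429, 431 and 423 CPM in WT undifferentiated libraries. The WT undifferentiated libraries stood apart from the other 9. Ccnd3 was lower in undifferentiated C48S cells (log2 -1.07, SE 0.05, adjusted p = 5.05e-19) and slightly higher in C48S after RA (log2 0.28, SE 0.05, adjusted p = 2.4e-05). It fell by 1.34 on the log2 scale with RA in WT, whereas the difference in C48S was 0.01 (SE 0.05, adjusted p = 0.82), and the RA changes differed by 1.35 (SE 0.07, adjusted p = 4.87e-17).

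Summed in TPM, the 3 D cyclins reached 314.9 ± 6.35 in C48S RA cells and 150.5 ± 0.875 in WT RA cells, and 284.1 ± 3.48 in undifferentiated C48S cells and 281.6 ± 2.18 in undifferentiated WT cells (SD, n = 3 each). The make-up of the sum differed from group to group. Ccnd2 made up 49.6 ± 0.0606% of the sum in C48S RA cells and 23.2 ± 0.472% in WT RA cells. Ccnd1 made up 66.9 ± 0.585% in undifferentiated C48S cells, and Ccnd3 made up 52.3 ± 0.332% in undifferentiated WT cells. By this measure the leading D cyclin was Ccnd2 in C48S RA cells and Ccnd3 in WT RA cells (48.3 ± 0.637%). In undifferentiated cells it was Ccnd1 in C48S and Ccnd3 in WT. The lengths used were the summed exons of each gene, 4709 bases for Ccnd1, 9409 for Ccnd2 and 8775 for Ccnd3. Shares and order depend on these lengths, and lengths of the transcripts present in the cells were not tried.

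**Figure D3:**
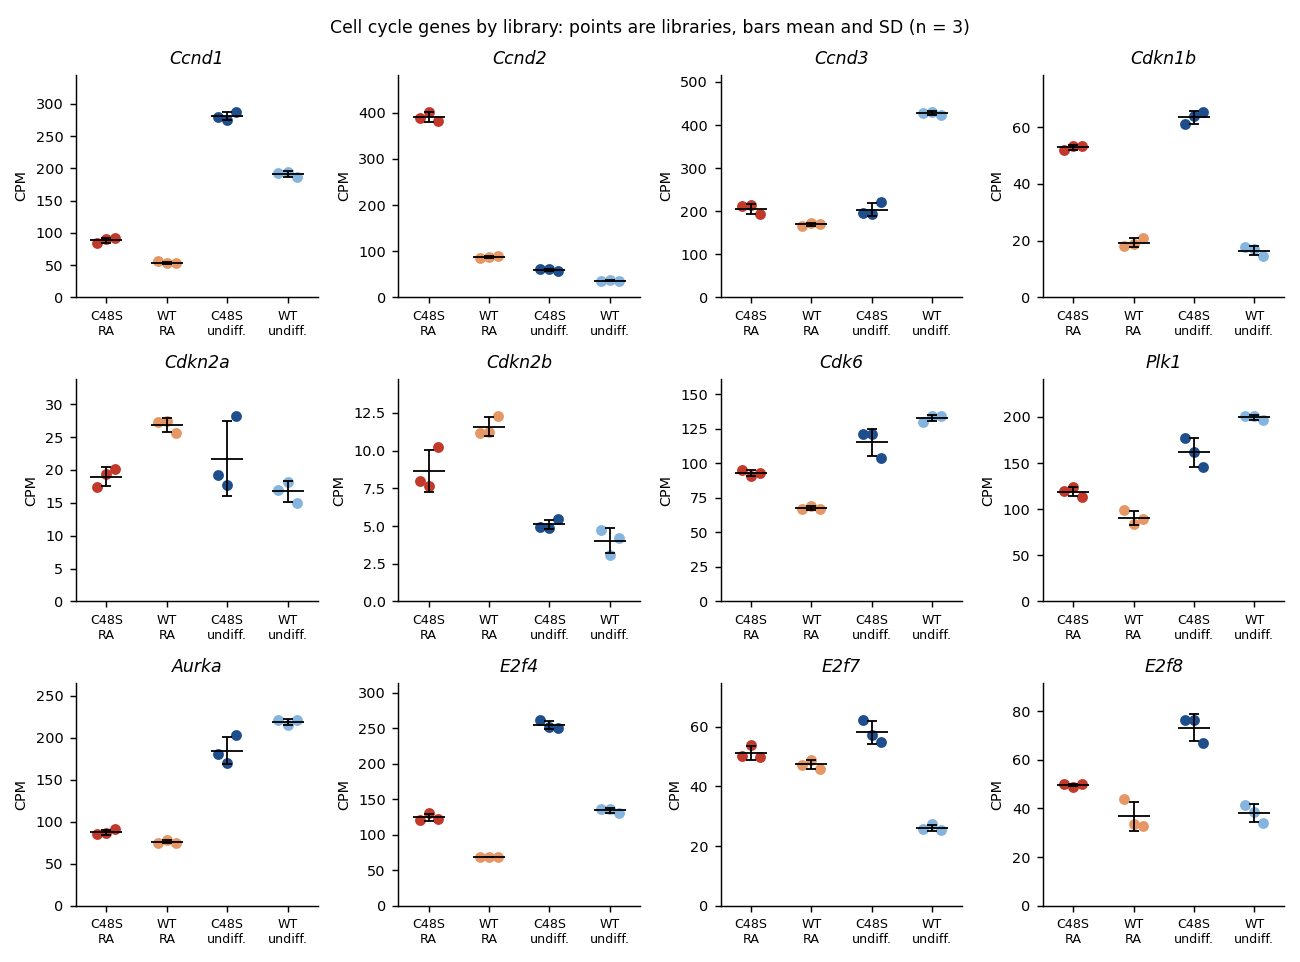
CPM of 12 of the genes (each panel from 0) in the 3 libraries of C48S RA, WT RA, C48S undifferentiated and WT undifferentiated cells; points are libraries and bars the mean and SD. Ccnd2 is high in the C48S RA libraries (383 to 402 CPM), Ccnd3 in the WT undifferentiated libraries (423 to 431 CPM), and Cdkn1b in C48S in both states (51.9 to 65.5 CPM, against 14.5 to 21.0 CPM in WT).

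The E cyclins, which activate CDK2 at the entry to S phase, were lower in C48S after RA and fell with RA in both lines. Ccne1 had 65.6, 66.3 and 59.9 CPM in C48S RA libraries and 83.2, 85.6 and 79.7 CPM in WT RA libraries. The undifferentiated libraries gave 127, 124 and 115 CPM in C48S and 161, 163 and 154 CPM in WT. The groups did not overlap, with C48S below WT by 0.37 on the log2 scale after RA (adjusted p = 1.55e-06) and by 0.39 before (adjusted p = 1.99e-07). Ccne1 fell with RA by 0.93 in C48S and by 0.94 in WT, changes that differed by 0.01 (SE 0.08, adjusted p = 0.937). Ccne2 averaged 18.2 ± 2.49 CPM in C48S RA cells, 25.3 ± 1.25 in WT RA cells, 33.2 ± 4.41 in undifferentiated C48S cells and 32.5 ± 3.18 in undifferentiated WT cells. It was lower in C48S after RA alone (log2 -0.48, SE 0.11, adjusted p = 0.000293), and its RA change was more negative in C48S by 0.51 (SE 0.15, adjusted p = 0.00602).

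The A and B cyclins act with CDK2 and CDK1 from S phase to mitosis. Ccnb1 had 221, 228 and 208 CPM in C48S RA libraries and 165, 170 and 169 CPM in WT RA libraries. Before RA the levels were 400, 424 and 418 CPM in C48S undifferentiated libraries and 387, 383 and 377 CPM in WT undifferentiated libraries. After RA it was higher in C48S (log2 0.38, SE 0.05, adjusted p = 2.06e-08). Ccnb1 fell with RA in both lines, less so in C48S (difference 0.27, SE 0.07, adjusted p = 0.00135). Its difference of 0.12 before RA was lost with RLE scaling, with DESeq2 and without any of 4 libraries (C48S undifferentiated replicate 2, 0.10, or WT undifferentiated replicate 1, 2 or 3, 0.10 to 0.12). Ccnb2 averaged 117.5 ± 7.02 CPM in C48S RA cells, 136.7 ± 6.97 in WT RA cells, 115.8 ± 5.47 in undifferentiated C48S cells and 111.9 ± 1.52 in undifferentiated WT cells. It rose with RA in WT (log2 0.29, SE 0.06, adjusted p = 1.85e-05), where the value in C48S was 0.02, and was lower in C48S than in WT after RA (log2 -0.22, SE 0.06, adjusted p = 0.00103). Ccna2, the A cyclin of dividing somatic cells, was higher in C48S by 0.16 after RA and by 0.15 before, and fell with RA by 0.42 in both lines; the difference after RA was not called without WT RA replicate 3 (0.11). Ccna1 was barely detected, with 145 counts over the 3 C48S RA libraries against 77 in WT RA libraries, and with 81 over the 3 C48S undifferentiated libraries against 8 in WT undifferentiated libraries. Its level was higher in C48S after RA (log2 0.71, SE 0.24, adjusted p = 0.0126; not called without WT RA replicate 3, 0.60, adjusted p = 0.0613) and before (log2 3.28, SE 0.415, adjusted p = 2.15e-08). Its rise with RA in C48S (log2 0.60, adjusted p = 0.0246) was lost with DESeq2, with no low-count filter (0.57) and without C48S undifferentiated replicate 1 (0.49) or 3 (0.56) or C48S RA replicate 3 (0.56).

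All 4 CDKs fell with RA in both lines, where 34.6% of all tested genes fell in C48S and 37.4% in WT. For all 4 the fall was smaller in C48S, for Cdk4 with a call that several alternatives lost. Of all tested genes, 22.2% had a more positive RA change in C48S. Cdk6, which pairs with D cyclins, had 94.8, 90.9 and 93.2 CPM in C48S RA libraries and 66.9, 69.3 and 66.6 CPM in WT RA libraries. In undifferentiated libraries the values were 121, 121 and 103.9 CPM in C48S and 130, 134 and 134 CPM in WT. After RA it was higher in C48S (log2 0.46, SE 0.06, adjusted p = 4e-08), and before RA lower (log2 -0.20, SE 0.06, adjusted p = 0.00248; -0.13 without C48S undifferentiated replicate 3). It fell with RA by 0.31 in C48S and by 0.97 in WT, a difference of 0.66 (SE 0.08, adjusted p = 3.22e-08). Cdk1, the mitotic kinase, averaged 110.3 ± 3.97 CPM in C48S RA cells, 107.7 ± 1.78 in WT RA cells, 154.9 ± 12.6 in undifferentiated C48S cells and 191.7 ± 2.14 in undifferentiated WT cells, so that the lines differed before RA (log2 -0.31, SE 0.05, adjusted p = 7.37e-06) and not detectably after it (0.03, SE 0.06, adjusted p = 0.636). Cdk2, the partner of the E cyclins, fell by 1.34 in C48S and by 1.65 in WT and was higher in C48S after RA (0.25, adjusted p = 0.00118). Cdk4 fell by 0.79 in C48S and by 1.03 in WT and was higher in C48S after RA (0.34, SE 0.06, adjusted p = 1.55e-05). The difference of its RA changes, 0.24 (adjusted p = 0.0201), was not called with DESeq2 (0.22) or without C48S undifferentiated replicate 1 or 2, WT undifferentiated replicate 1 or 2, C48S RA replicate 2, or WT RA replicate 1 or 2 (0.17 to 0.22). Before RA Cdk4 had 419, 434 and 520 CPM in C48S undifferentiated libraries and 434, 432 and 417 CPM in WT undifferentiated libraries. C48S undifferentiated replicate 3 thus stood apart. The difference of 0.10 before RA was not called, and it was called without C48S undifferentiated replicate 1 (0.16). Over the alternatives it lay between 0 and 0.16, and the difference of the RA changes between 0.17 and 0.34.

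Of the CDK inhibitors, Cdkn1b (chr6:134897364-134902476), which encodes p27, differed most between the lines. It had 51.9, 53.4 and 53.3 CPM in C48S RA libraries and 17.9, 18.7 and 21.0 CPM in WT RA libraries. Without RA, it had 61.0, 63.9 and 65.5 CPM in C48S undifferentiated libraries and 17.7, 17.1 and 14.5 CPM in WT undifferentiated libraries. Every C48S library lay above every WT library in both states. Cdkn1b was 2.75-fold higher in C48S after RA (log2 1.46, SE 0.08, adjusted p = 9.19e-17) and 3.85-fold higher before (log2 1.94, SE 0.09, adjusted p = 5.02e-20). With RA it fell in C48S (log2 -0.26, SE 0.07, adjusted p = 0.00185) and rose in WT (log2 0.22, SE 0.10, adjusted p = 0.0392), and these changes differed by -0.48 (SE 0.12, adjusted p = 0.00163). The rise in WT was lost without WT undifferentiated replicate 3 (0.14) or WT RA replicate 3 (0.15) and with no low-count filter (0.21). In TPM, Cdkn1b stood at 13.9 ± 0.348% of the summed D cyclins in C48S RA cells and 10.6 ± 0.831% in WT RA cells, and at 15.6 ± 0.457% in undifferentiated C48S cells and 3.87 ± 0.348% in undifferentiated WT cells.

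The INK4 inhibitors Cdkn2a and Cdkn2b are neighbours on chromosome 4 (89192708 to 89212890 and 89224536 to 89229276). Counts of Cdkn2a do not part its transcripts for p16INK4a and p19ARF. Cdkn2a had 17.4, 19.4 and 20.1 CPM in C48S RA libraries and 27.4, 27.4 and 25.6 CPM in WT RA libraries. The undifferentiated libraries gave 19.3, 17.7 and 28.2 CPM in C48S and 16.99, 18.2 and 14.97 CPM in WT. The WT RA libraries were highest except for C48S undifferentiated replicate 3. Cdkn2a was lower in C48S after RA (log2 -0.50, SE 0.12, adjusted p = 0.000858) and rose with RA in WT (log2 0.67, SE 0.13, adjusted p = 2.13e-05), where the value in C48S was -0.19 (adjusted p = 0.162; -0.34 and called without C48S undifferentiated replicate 2). The RA changes differed by -0.87 (SE 0.18, adjusted p = 0.000224). Its higher level in undifferentiated C48S cells, 0.37 on the log2 scale (adjusted p = 0.018), rested on C48S undifferentiated replicate 3: without it the value was 0.145 (adjusted p = 0.284), and without WT undifferentiated replicate 3 it was 0.29 (adjusted p = 0.0974).

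Cdkn2b, encoding p15INK4b, had 7.99, 7.67 and 10.2 CPM in C48S RA libraries and 11.2, 11.2 and 12.3 CPM in WT RA libraries. Before RA the levels were 4.92, 4.90 and 5.48 CPM in C48S undifferentiated libraries and 4.72, 3.11 and 4.23 CPM in WT undifferentiated libraries. It rose with RA in both lines, by 0.76 in C48S and 1.54 in WT on the log2 scale, and the rise was smaller in C48S (difference -0.78, SE 0.24, adjusted p = 0.00932; -0.63 and not called without WT undifferentiated replicate 2). It was lower in C48S after RA (log2 -0.42, SE 0.14, adjusted p = 0.0131), a call lost without C48S RA replicate 1 (-0.36) or 2 (-0.35). Cdkn2c, encoding p18INK4c, averaged 4.22 ± 0.621 CPM in C48S RA cells, 5.11 ± 0.646 in WT RA cells, 0.920 ± 0.649 in undifferentiated C48S cells and 1.68 ± 0.524 in undifferentiated WT cells. It rose with RA by 2.20 in C48S (SE 0.32, adjusted p = 1.36e-07) and by 1.56 in WT (SE 0.27, adjusted p = 3.94e-06). Its lower level in undifferentiated C48S cells (log2 -0.91, adjusted p = 0.0416) was -0.60 to -0.70 and not called without WT undifferentiated replicate 2 or C48S undifferentiated replicate 1 or 2, and -1.58 without C48S undifferentiated replicate 3. The difference of its RA changes, 0.64, was not called, and was 1.31 and called without C48S undifferentiated replicate 3. Cdkn2d, encoding p19INK4d, was higher in undifferentiated C48S cells (12.6 ± 1.61 CPM against 7.31 ± 0.119 in WT; log2 0.79, SE 0.15, adjusted p = 2.2e-05). It fell with RA in C48S (log2 -0.39, adjusted p = 0.0111), a call lost without C48S undifferentiated replicate 3 (-0.305) or C48S RA replicate 3 (-0.275). Its difference after RA, 0.28, was not called, and was 0.39 and called without C48S RA replicate 3. The difference of its RA changes, -0.50 (adjusted p = 0.0534), was -0.61 to -0.51 and called with RLE scaling, with a minimum count of 50, with protein-coding genes alone, without chromosomes 6, 8, 11 and Y, and without C48S undifferentiated replicate 2, WT RA replicate 2 or C48S RA replicate 1 or 2.

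For none of the 3 pocket proteins, which hold E2F factors inactive, was a difference between the lines' RA changes called. Rb1 rose with RA in both lines. It averaged 72.9 ± 4.35 CPM in C48S RA cells and 33.2 ± 3.16 in undifferentiated C48S cells, and 67.3 ± 3.18 CPM in WT RA cells and 28.5 ± 2.22 in undifferentiated WT cells. The log2 rise was 1.14 in C48S (SE 0.08, adjusted p = 2.94e-15) and 1.25 in WT (SE 0.08, adjusted p = 3.82e-16), and the difference of -0.11 (SE 0.11, adjusted p = 0.467) was not called. Rbl2 rose by 0.41 in C48S and 0.42 in WT, and Rbl1 fell by 0.40 in C48S and 0.49 in WT. Rbl1 was higher in C48S after RA (log2 0.41, adjusted p = 5.68e-05) and before (log2 0.31, adjusted p = 0.00079). Rb1 was higher in undifferentiated C48S cells by 0.22 (adjusted p = 0.0256), a call lost with DESeq2 (0.20) and without C48S undifferentiated replicate 2 (0.15) or WT undifferentiated replicate 2 (0.16).

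Of the 3 activator E2Fs, which drive S-phase genes, E2f2 was higher in C48S after RA and E2f3 lower before RA, and E2f1 was called in neither state. E2f1 averaged 47.5 ± 1.65 CPM in C48S RA cells, 51.0 ± 3.08 in WT RA cells, 72.4 ± 11.3 in undifferentiated C48S cells and 76.8 ± 2.68 in undifferentiated WT cells, and it fell with RA by 0.61 in C48S and by 0.59 in WT on the log2 scale. Its difference between undifferentiated lines, -0.08, was not called, and was -0.19 and called without C48S undifferentiated replicate 3. E2f3 (promoter above) fell with RA by 0.40 in C48S and by 0.52 in WT, and was lower in undifferentiated C48S cells (log2 -0.25, SE 0.06, adjusted p = 0.000591). After RA its difference of -0.13 (adjusted p = 0.0783) was not called; with RLE scaling, DESeq2 or a minimum count of 50 it was -0.17 and called, as it was with only the compared groups (-0.15) or protein-coding genes alone (-0.16), and without WT RA replicate 3 it was -0.18 and called. E2f2 had 12.4, 15.5 and 12.3 CPM in C48S RA libraries and 10.7, 9.78 and 9.86 CPM in WT RA libraries. In undifferentiated libraries the values were 15.8, 11.1 and 12.6 CPM in C48S and 14.9, 16.8 and 16.7 CPM in WT. It fell with RA in WT (log2 -0.68, SE 0.13, adjusted p = 2.33e-05), where the value in C48S was 0.005, and the RA changes differed by 0.68 (SE 0.18, adjusted p = 0.00309). Its higher level in C48S after RA (log2 0.40, adjusted p = 0.0112) was lost without C48S RA replicate 2 (0.29) or WT RA replicate 3 (0.36), and its difference before RA (-0.28) was called with RLE scaling (-0.30) and without C48S undifferentiated replicate 1 (-0.44) or WT undifferentiated replicate 1 (-0.34).

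Of the 5 repressor E2Fs, 4 were higher in C48S after RA (28.8% of all tested genes), with E2f7 not called, and 4 before (27.5% of all), with E2f5 lower. E2f4 (chr8:106024295-106032002), the main partner of Rbl1 and Rbl2 in resting cells, had 121, 130 and 122 CPM in C48S RA libraries and 68.5, 68.7 and 68.0 CPM in WT RA libraries. Without RA, it had 261, 251 and 251 CPM in C48S undifferentiated libraries and 137, 136 and 131 CPM in WT undifferentiated libraries. All C48S libraries lay above all WT libraries of the same state. The log2 difference was 0.86 (SE 0.05, adjusted p = 4.17e-16) after RA and 0.92 (SE 0.05, adjusted p = 8.09e-18) before, and E2f4 fell with RA by 1.03 in C48S and by 0.98 in WT. E2f6, a repressor that acts without pocket proteins, was higher in C48S by 0.52 after RA (adjusted p = 1.34e-06) and by 0.69 before (adjusted p = 6.78e-08) and rose with RA by 0.63 in C48S and 0.80 in WT. E2f5 was higher in C48S after RA (log2 0.29, adjusted p = 0.00959; not called with DESeq2, 0.24) and lower before (log2 -0.25, adjusted p = 0.0301). The difference before RA was lost with no low-count filter and without C48S undifferentiated replicate 3 (-0.15) or WT undifferentiated replicate 2 or 3 (-0.24). E2f5 rose with RA in C48S (log2 0.31, adjusted p = 0.00369), while its fall in WT (log2 -0.22, adjusted p = 0.0354) was lost with RLE scaling, with DESeq2, without chromosomes 6, 8, 11 and Y (each -0.20), with a minimum count of 50 (-0.13) or no filter and without WT undifferentiated replicate 2 or 3 or WT RA replicate 1 or 2 (-0.22 to -0.19).

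The atypical repressors E2f7 and E2f8 bind DNA without a DP partner and are themselves E2F targets. E2f7 (chr10:110581300-110623245) had 50.2, 54.0 and 49.8 CPM in C48S RA libraries and 47.3, 48.9 and 46.0 CPM in WT RA libraries. The undifferentiated libraries gave 62.3, 57.1 and 55.0 CPM in C48S and 25.7, 27.3 and 25.5 CPM in WT. The WT undifferentiated libraries were the lowest by far, and the other groups lay close to each other. E2f7 was 2.22-fold higher in undifferentiated C48S cells (log2 1.15, SE 0.08, adjusted p = 4.3e-15), while the difference after RA was 0.11 (SE 0.07, adjusted p = 0.186). It rose with RA in WT by 0.85 (SE 0.08, adjusted p = 4.81e-12) and fell in C48S by 0.18 (SE 0.07, adjusted p = 0.0189), a difference of -1.04 (SE 0.10, adjusted p = 4.11e-10). The fall in C48S was lost with a minimum count of 50 (-0.12) and without C48S undifferentiated replicate 1 (-0.13) or C48S RA replicate 1 or 3 (both -0.16). E2f8 had 50.0, 48.9 and 49.9 CPM in C48S RA libraries and 43.7, 33.6 and 32.7 CPM in WT RA libraries. Before RA the levels were 76.3, 76.3 and 66.8 CPM in C48S undifferentiated libraries and 41.2, 38.6 and 34.0 CPM in WT undifferentiated libraries. Both states showed more E2f8 in C48S (log2 0.44 after RA, adjusted p = 0.000101, and 0.95 before, adjusted p = 6.67e-11). It fell with RA in C48S (log2 -0.56, SE 0.08, adjusted p = 5.53e-07), where the value in WT was -0.05 (adjusted p = 0.599), and the RA changes differed by -0.51 (SE 0.12, adjusted p = 0.00152). Summed in TPM, the 5 repressor E2Fs reached 333.8 ± 10.4 in C48S RA cells and 217.6 ± 4.31 in WT RA cells. The sums were 449.0 ± 31.9 in undifferentiated C48S cells and 247.3 ± 4.04 in undifferentiated WT cells. E2f4, on chromosome 8 (medians below), was the largest part of each sum. Alone it had 191 ± 7.14 TPM in C48S RA cells and 105 ± 0.547 TPM in WT RA cells. In undifferentiated cells it had 331 ± 19.1 TPM in C48S and 166 ± 2.29 TPM in WT. The 3 activators reached 111.8 ± 2.55 in C48S RA cells and 117.7 ± 1.51 in WT RA cells, and 131.6 ± 6.81 in undifferentiated C48S cells and 139.9 ± 2.12 in undifferentiated WT cells.

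**Figure D4:**
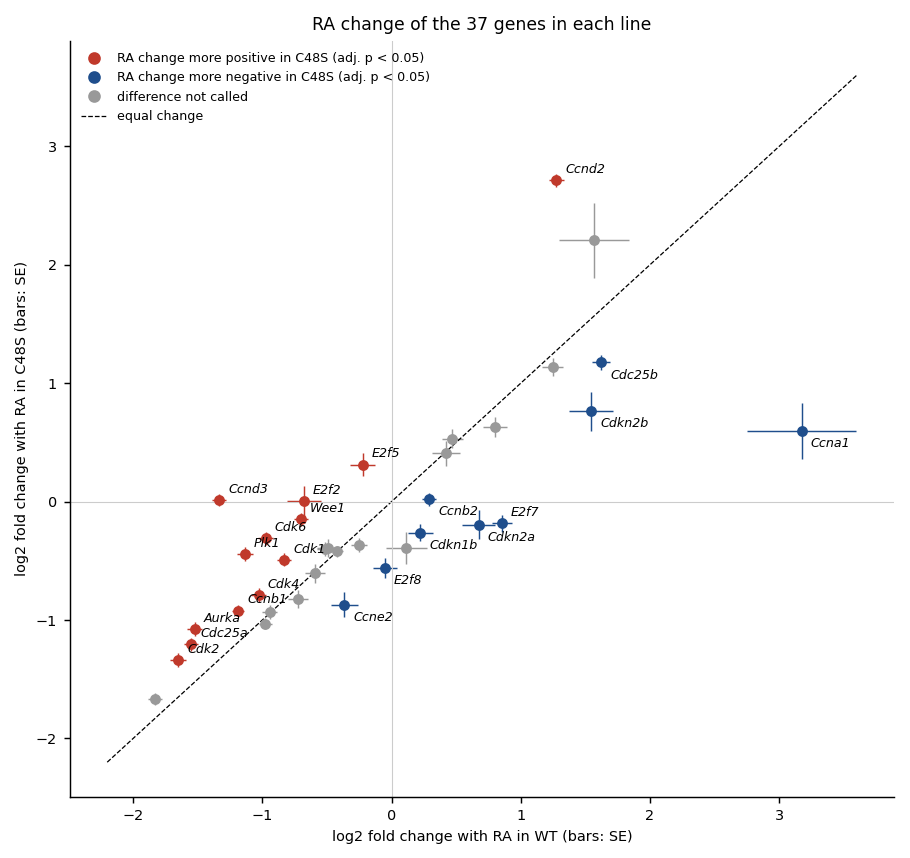
Log2 fold change with RA in C48S (y axis) against that in WT (x axis) for the 37 genes, with SE bars and a dashed line of equal change; red and blue mark genes whose RA changes differed at an adjusted p under 0.05. Ccnd3 (0.01 in C48S and -1.34 in WT) and Ccnd2 (2.71 in C48S and 1.27 in WT) lie far above the line, and Ccna1 and E2f7 far below it.

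Among the regulators of CDK phosphorylation, the 3 CDC25 phosphatases, which activate CDKs, did not move together. Cdc25b had 105, 100.1 and 100.3 CPM in C48S RA libraries and 77.8, 82.3 and 76.4 CPM in WT RA libraries. In undifferentiated libraries the values were 43.1, 45.7 and 46.5 CPM in C48S and 23.7, 26.3 and 26.9 CPM in WT. Its level was higher in C48S after RA (log2 0.37, SE 0.06, adjusted p = 3.63e-06) and before (log2 0.81, SE 0.07, adjusted p = 1.36e-11), and rose with RA by 1.17 in C48S and 1.62 in WT, less so in C48S (difference -0.45, SE 0.10, adjusted p = 0.000275). Cdc25a, which acts at the G1 to S transition, fell by 1.20 in C48S and by 1.55 in WT and was lower in undifferentiated C48S cells (log2 -0.36, SE 0.05, adjusted p = 2.12e-07). After RA its levels were 79.7 ± 2.21 CPM in C48S and 80.6 ± 3.89 CPM in WT, within their spread. Cdc25c was higher in C48S by 0.37 after RA (adjusted p = 0.000129) and by 0.31 before (adjusted p = 0.00248). Wee1, the kinase that opposes CDC25, averaged 92.2 ± 4.75 CPM in C48S RA cells, 85.3 ± 2.71 in WT RA cells, 102.3 ± 4.15 in undifferentiated C48S cells and 139.0 ± 1.54 in undifferentiated WT cells. It fell with RA by 0.70 in WT (adjusted p = 8.12e-14) and by 0.15 in C48S (adjusted p = 0.0156; not called with a minimum count of 50, -0.09, or without C48S RA replicate 3, -0.11), and the changes differed by 0.55 (SE 0.08, adjusted p = 3.74e-07). Its difference after RA, 0.11, was not called, and was 0.15 and called without C48S RA replicate 3. Skp2, which marks p27 for degradation, was called in neither state (0.03 after RA, adjusted p = 0.748, and 0.14 before, adjusted p = 0.113) and fell with RA by 0.82 in C48S and by 0.72 in WT.

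The mitotic kinases fell with RA in both lines, and Plk1 and Aurka were lower in C48S before RA and higher after it. Plk1 had 120, 124 and 114 CPM in C48S RA libraries and 99.1, 84.4 and 89.1 CPM in WT RA libraries. Without RA, it had 177, 162 and 145 CPM in C48S undifferentiated libraries and 201, 201 and 197 CPM in WT undifferentiated libraries. The log2 difference between the lines was 0.39 (SE 0.06, adjusted p = 3.24e-06) after RA and -0.30 (SE 0.06, adjusted p = 6.12e-05) before, and Plk1 fell with RA by 0.44 in C48S and by 1.14 in WT (difference 0.69, SE 0.09, adjusted p = 6.75e-08). Aurka, needed for centrosome maturation and spindle assembly, had 85.5, 86.2 and 91.1 CPM in C48S RA libraries and 75.1, 78.2 and 75.1 CPM in WT RA libraries. The undifferentiated libraries gave 181, 170 and 203 CPM in C48S and 221, 215 and 221 CPM in WT. It fell by 1.08 in C48S and by 1.52 in WT (difference 0.45, SE 0.08, adjusted p = 2.25e-05). Its difference after RA, 0.20 (adjusted p = 0.0042), was 0.16 and not called with DESeq2 (adjusted p = 0.0537). Aurkb, the kinase of the chromosomal passenger complex, was lower in C48S after RA (84.8 ± 1.22 CPM, against 109.2 ± 5.04 in WT; log2 -0.37, adjusted p = 6.2e-06) and before (109.4 ± 11.9 CPM, against 130.1 ± 6.13 in WT; log2 -0.25, adjusted p = 0.000766).

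Several of these genes lie on chromosomes whose genes differed as a whole between the lines. The median log2 difference, C48S minus WT, over all tested genes of a chromosome was 0.59 after RA and 0.572 before for the 898 genes of chromosome 6, 0.542 and 0.504 for the 941 genes of chromosome 8, and -0.492 and -0.528 for the 1403 genes of chromosome 11, while the other autosomes lay between -0.146 and 0.096. Ccnd2 and Cdkn1b are on chromosome 6, E2f4 and Rbl2 on chromosome 8 and Aurkb on chromosome 11. Relative to its chromosome's median, Ccnd2 stood at 1.58 after RA and 0.16 before, Cdkn1b at 0.87 and 1.37, and E2f4 at 0.32 and 0.42. Aurkb, lower in C48S by the test, stood above its chromosome's median by 0.13 after RA and 0.28 before, and Rbl2, called in neither state, stood below its own by 0.49 and 0.44. The part of these chromosome-wide differences in the values of these 5 genes was not tested. Ccnd3, Ccnd1 and E2f7 lie on chromosomes whose medians were between 0.016 and 0.096, and the 32 genes outside chromosomes 6, 8 and 11 kept their calls in both line comparisons when the genes of those chromosomes and of Y were left out of the scaling and the test.

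**Figure D5:**
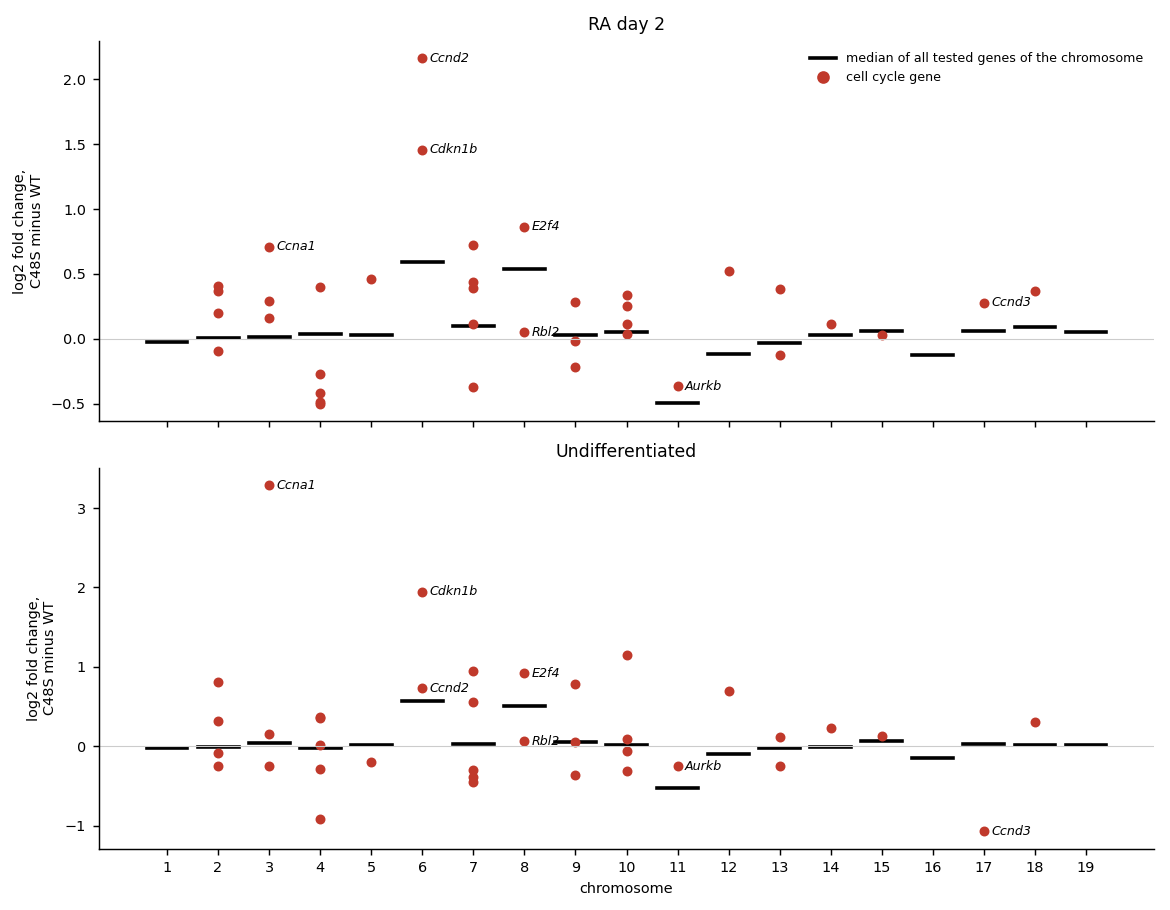
Log2 fold change of C48S minus WT (y axis) of the 37 genes by chromosome (x axis), after RA (top) and in undifferentiated cells (bottom), with a black bar at the median of all tested genes of the chromosome. The bars of chromosomes 6 and 8 lie above 0 (0.572 to 0.59 and 0.504 to 0.542) and that of chromosome 11 below it, and Ccnd2, Cdkn1b, E2f4, Rbl2, Aurkb, Ccna1 and Ccnd3 are named.

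Other genes of the same machinery were taken from lists of general knowledge, also with earlier results of these data known. Of 10 CIP/KIP inhibitors, CDK-activating kinase genes and CDK subunits, 6 were higher and 0 lower in C48S after RA and 4 were higher and 1 lower before. The shares of all tested genes, for this and the next 4 lists, were 28.8% higher and 25.7% lower after RA and 27.5% higher and 28.1% lower before; with RA they were 39% up and 34.6% down in C48S and 40.9% up and 37.4% down in WT, and for the difference of the RA changes 22.2% and 17.2%. The called share of this list, 60% after RA and 50% before, was near that of all genes (54.5% and 55.6%). Cdkn1a, encoding p21, had 202, 197 and 198 CPM in C48S RA libraries and 112, 118 and 118 CPM in WT RA libraries. Before RA the levels were 339, 333 and 368 CPM in C48S undifferentiated libraries and 258, 259 and 256 CPM in WT undifferentiated libraries. It was higher in C48S by 0.77 after RA (SE 0.05, adjusted p = 1.7e-15) and by 0.43 before (SE 0.05, adjusted p = 8.61e-10), and fell with RA by 0.80 in C48S and by 1.15 in WT (difference 0.34, adjusted p = 9.94e-05). Cdkn1c, encoding p57, had 41.0, 33.7 and 36.8 CPM in C48S RA libraries and 18.9, 14.6 and 14.4 CPM in WT RA libraries. In undifferentiated libraries the values were 6.36, 7.25 and 9.82 CPM in C48S and 3.04, 2.77 and 4.23 CPM in WT. It was higher in C48S by 1.23 both after RA (adjusted p = 1.88e-10) and before (adjusted p = 4.61e-06) and rose with RA by 2.26 in both lines. All 3 CIP/KIP genes were thus higher in C48S in both states. Cdkn1b lies on chromosome 6, with the medians above. The share of all tested genes with this joint pattern was not worked out. Cyclin F (Ccnf) was also higher in C48S, by 0.47 after RA and 0.33 before, and Cks1b, the cofactor of Skp2, fell with RA by 0.73 in C48S and by 0.92 in WT. The RA change was more positive in C48S for Cdk7 (0.32) and Pkmyt1 (0.28).

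Of 9 listed E2F partners and MuvB complex genes, 8 were tested and Lin54 was not analysed here. After RA 5 were higher and 1 lower in C48S, and before RA 3 were higher and 3 lower, 75% called in each state against 54.5% and 55.6% of all genes. Mybl2, the B-Myb that joins MuvB in dividing cells, had 230, 231 and 226 CPM in C48S RA libraries and 122, 123 and 119 CPM in WT RA libraries. Without RA, it had 833, 802 and 788 CPM in C48S undifferentiated libraries and 848, 795 and 809 CPM in WT undifferentiated libraries. It fell with RA by 1.82 in C48S and by 2.75 in WT (difference 0.93, SE 0.06, adjusted p = 3.19e-14). Tfdp1, the DP partner of E2Fs, was higher in C48S by 0.96 after RA and 1.02 before, and Foxm1, which drives G2 and mitotic genes, by 0.94 and 1.12. They lie on chromosomes 8 and 6, with the medians above. The RA change of Lin9 (0.42) and Rbbp4 (0.19) was also more positive in C48S, Rbbp4 fell by 0.83 in C48S and by 1.02 in WT, and Tfdp2 was lower in undifferentiated C48S cells by 0.39.

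The ubiquitin ligases SCF and APC/C, which mark cyclins and inhibitors for destruction, were represented by 12 genes. With RA, 2 rose and 7 fell in C48S and 0 rose and 11 fell in WT, and the RA change was more positive in C48S for 7 and more negative for 0. The called share with RA was 75% in C48S and 91.7% in WT, against 73.6% and 78.3% of all genes, and 58.3% for the difference, against 39.4%. Btrc, an SCF substrate receptor, had 56.2, 55.5 and 53.9 CPM in C48S RA libraries and 50.8, 53.3 and 48.8 CPM in WT RA libraries. The undifferentiated libraries gave 51.9, 53.1 and 50.5 CPM in C48S and 108, 102 and 110 CPM in WT. As with Ccnd3, the WT undifferentiated libraries stood apart, and the RA changes differed by 1.15 (SE 0.09, adjusted p = 5.69e-13). The difference was 0.76 for Cdc20 (SE 0.07, adjusted p = 1.67e-11), the APC/C activator of mitosis, and 0.72 for Ube2c (SE 0.08, adjusted p = 2.33e-09), the ubiquitin-conjugating enzyme that works with APC/C. Fbxo5, an APC/C inhibitor, fell by 1.11 in C48S and by 1.30 in WT. Cul1, the SCF scaffold on chromosome 6, was higher in C48S by 1.00 after RA and by 0.63 before, Fzr1 was higher by 0.69 after RA, Skp1 was lower by 0.65 before and Cdc27 was lower by 0.68 after; Skp1 and Cdc27 lie on chromosome 11, whose medians were -0.528 before and -0.492 after.

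Of 14 S-phase targets of E2F, 14 fell with RA in C48S and 13 fell in WT, with 0 rising in either line. Between the lines 8 were higher and 3 lower in C48S after RA, and 9 were higher and 3 lower before, 78.6% and 85.7% called against 54.5% and 55.6% of all genes. Mcm2, a subunit of the replicative helicase on chromosome 6, had 534, 526 and 504 CPM in C48S RA libraries and 202, 200.3 and 205 CPM in WT RA libraries. Before RA the levels were 985, 971 and 977 CPM in C48S undifferentiated libraries and 691, 695 and 698 CPM in WT undifferentiated libraries. It was higher in C48S by 1.37 after RA (SE 0.04, adjusted p = 7.96e-24) and by 0.49 before (SE 0.04, adjusted p = 2.9e-12), and its RA change was more positive in C48S by 0.87 (SE 0.06, adjusted p = 4.22e-14). Mcm5, of the same helicase, was higher in C48S by 0.96 after RA and 0.61 before, Cdt1, a licensing factor, by 0.67 after, and Rrm2, of ribonucleotide reductase, by 0.66 before. Mcm5 and Cdt1 lie on chromosome 8, whose medians were 0.542 after RA and 0.504 before. The RA change was more positive in C48S for 3 of the 14 and more negative for 5.

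Of 18 spindle, checkpoint and cytokinesis genes, 11 fell and 4 rose with RA in C48S, and 13 fell and 2 rose in WT, 83.3% called in each line against 73.6% and 78.3% of all genes. The RA change was more positive in C48S for 9 and more negative for 1. Pttg1, the securin that guards sister chromatids and lies on chromosome 11, fell by 1.14 in C48S and by 2.18 in WT (difference 1.04, SE 0.13, adjusted p = 3.79e-08), and the difference was 0.44 for both Kif20a and Prc1, which act in cytokinesis. Mad2l1, of the spindle checkpoint and on chromosome 6, was higher in C48S by 0.77 after RA and 0.95 before. Top2a, the topoisomerase of dividing cells, was lower in undifferentiated C48S cells by 0.40, less than the median of its chromosome 11 (-0.528), and Cenpf was higher in C48S after RA by 0.52. After RA 10 of the 18 were higher and 3 lower in C48S, and before RA 6 were higher and 5 lower.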

How the data were processed

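RNA-seq libraries were made from rRNA-depleted total RNA, as given in the labels' protocols. The submitters' processing notes name STAR 2.7.9a, DESeq2 and the build mm39. Each deposited file holds unnormalized counts per gene from featureCounts 1.6.3, which counted read pairs with strand option 2 and Ensembl GRCm39 release 104 gene models, per the file headers. Gene symbols came from GENCODE M21 (94% of identifiers), used for names only, and RefSeq GRCm38.p6 gave the promoters. Near-identical copies could lose or split reads.

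From the counts, edgeR 4.0.16 in R 4.3.3 was run on all 12 libraries: filterByExpr (minimum count 10), TMM scaling, a robust quasi-likelihood fit of 4 group means (8 residual degrees of freedom) and Benjamini-Hochberg adjustment over 17940 genes at 0.05. CPM used TMM-scaled totals; TPM divided counts by the summed exon length in the files. The contrasts were C48S minus WT in each state, RA minus undifferentiated in each line, and the difference of the RA changes. The script was checked on simulated counts.

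All 37 genes could be named. Of the other lists, up to 3 called genes per list and comparison with the smallest adjusted p were named, every gene of a list with at most 3 calls, and Cdkn1a and Cdkn1c always. Not every result that this rule allows is reported here. The members and lists were chosen with earlier results of these data known. Alternatives were RLE scaling, DESeq2 1.42.0, no or a stricter low-count filter (minimum 50), only the compared groups, protein-coding genes alone, a replicate block, each library left out, no genes of chromosomes 6, 8, 11 and Y, and subtraction of the chromosome median.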

Additional observations from a re-analysis of the deposited data

Results flagged for a closer look

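For 22 of the 37 genes the RA change differed between the lines by the test of the difference itself, in edgeR's quasi-likelihood fit. The same test called 39.4% of all tested genes. Values are differences of log2 RA changes, C48S minus WT.

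Among the cyclins the difference was 1.44 for Ccnd2 and 1.35 for Ccnd3, and 0.27 for Ccnb1. It was -2.58 for Ccna1, which rests on few counts, -0.51 for Ccne2 and -0.27 for Ccnb2. Among the CDKs it was 0.66 for Cdk6, 0.34 for Cdk1, 0.31 for Cdk2 and 0.24 for Cdk4, whose call several alternatives lost. Among the inhibitors it was -0.87 for Cdkn2a, -0.78 for Cdkn2b (not called without WT undifferentiated replicate 2, -0.63) and -0.48 for Cdkn1b. The E2F factors had differences of 0.68 (E2f2) and 0.54 (E2f5), and of -1.04 (E2f7) and -0.51 (E2f8). Cdc25a had 0.35, Wee1 0.55 and Cdc25b -0.45. The mitotic kinases Plk1 and Aurka had 0.69 and 0.45. The summed pluripotency markers also differed between the lines after RA (1250 to 1320 CPM in C48S and 643 to 660 CPM in WT), and their part in these differences was not tested.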

How the results depend on the processing

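No count of genes changed by more than 1.5 times and no direction of a called gene turned under any alternative scaling, tool, filter, block or left-out library. Of 2745 values of single genes under these alternatives, 2652 stayed on their side of the threshold, 68 lost the call and 25 gained it; values near 0 that were called in neither fit could change sign. Subtracting the chromosome median turned Aurkb to 0.13 after RA and 0.28 before. Leaving out each library gave 17 to 22 genes higher and 5 to 7 lower in C48S after RA, 14 to 17 higher and 10 to 13 lower before, 9 to 10 rising and 20 to 24 falling with RA in C48S, 12 to 13 rising and 21 to 22 falling in WT, and 12 to 15 more positive and 8 to 10 more negative RA changes in C48S. Over all genes the called counts then ranged from 8889 to 9128 and 9189 to 10221 between the lines (after and before RA), 12706 to 13247 and 13687 to 13862 with RA (C48S and WT), and 6420 to 7771 for the difference.

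Replicate numbers did not pair the libraries: over 18 same-numbered pairs the correlation of deviations lay between -0.053 and 0.029, with 0 over 0.1. With the replicate number as a block, 9638 and 9858 genes were called between the lines (after and before RA), 13092 and 13969 with RA (C48S and WT) and 6938 for the difference, and Cdkn2c before RA lost its call (-0.92, adjusted p = 0.0517). Fitting only the compared groups ended the calls of Ccnb1, Cdkn2a, Cdkn2c, Rb1 and E2f5 between undifferentiated lines and of E2f7 and Wee1 with RA in C48S. Low counts limit Ccna1, Cdkn2c and Cdkn2b.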
